A study of Rattus norvegicus with 18 samples.

Results

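The genes described here are 10 interferon-stimulated genes, followed library by library through tibialis anterior muscle of the rat: Dhx58, Irf7, Ifit2, Ifit3, Isg15, Mx1, Mx2, Oas1a, Rsad2 and Gbp2. They and the related gene lists were chosen by symbol, with earlier results of these data known. The shares of all genes set beside their counts therefore describe these sets and do not test them. All 10 had an entry among the 30560 entries of the deposited tables, and all 10 held enough counts to be tested in every comparison. Muscle RNA was read from cryosections of whole tissue, at the front of the lower hindlimb, in 18 libraries of 5 groups. Those of 9-month-old rats comprised 6 libraries labelled p16-null DMD, 3 labelled DMD and 3 of wild type (WT). The age pair of WT rats comprised 3 libraries at 18 months and 3 at 3 months. DMD rats are a model of Duchenne muscular dystrophy, the muscle disease caused by loss of dystrophin, and p16 is a cell cycle inhibitor encoded by Cdkn2a. Both 9-month mutant groups carry the DMD genotype. The labels used here do not describe the strain, the sex, the alleles behind the DMD and p16-null names or whether the p16-null state covers every cell. The design text counts rats in each group (n = 6, 3, 3, 3 and 3), and nothing else says that libraries of a group were prepared apart.

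Interferons are secreted when sensors of foreign or misplaced nucleic acid fire. Type I interferons bind the receptor pair Ifnar1 and Ifnar2, whose kinases Jak1 and Tyk2 act on Stat2, which joins Irf9 in a complex that binds the interferon-stimulated response element in target promoters. Interferon gamma uses other receptors and acts mainly through the gamma-activated site. The genes described here are targets of that pathway. Dhx58 (LGP2) is a sensor of the RIG-I family, and Irf7 is the transcription factor that amplifies type I interferon production. Ifit2 and Ifit3 belong to a family of RNA-binding antiviral proteins, Isg15 is a ubiquitin-like modifier, Mx1 and Mx2 are dynamin-like GTPases, Oas1a makes the messenger that activates RNase L, and Rsad2 (viperin) makes an antiviral nucleotide analogue. Gbp2 is a guanylate-binding GTPase that responds strongly to interferon gamma. In muscle these genes are best known from inflammatory myopathies, above all dermatomyositis.

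The response element can be seen in the promoters themselves. RefSeq promoter sequences of the assembly GRCr8 were at hand for 6 of the 10 genes, and the core of the response element, GAAA followed after 2 free bases by GAAA, searched on both strands over the 250 bases before the start site, was in 5 of them: Ifit3, Gbp2, Irf7, Oas1a and Rsad2. It was in 3.41% of 33469 promoters of the same length. The motif TTCNNNGAA, a form of the gamma-activated site, was in 1 of the 6, that of Oas1a, and in 7.67% of all promoters. The Mx1 promoter window held no match to either motif, and Ifit2, Dhx58, Mx2 and Isg15 were not searched. The 80-base stretches around the matches to the response element core are given from 5′ to 3′ on the strand of the gene, with the matches in capitals (a match on the other strand reads as TTTC, 2 free bases and TTTC). The Oas1a stretch holds a pair of overlapping matches.
Ifit3, chr1:241527246-241527325, plus strand: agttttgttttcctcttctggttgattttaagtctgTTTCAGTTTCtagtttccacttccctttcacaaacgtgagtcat
Gbp2, chr2:234005647-234005726, plus strand: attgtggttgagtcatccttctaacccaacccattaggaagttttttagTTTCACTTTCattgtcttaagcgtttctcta
Irf7, chr1:205800048-205800127, minus strand: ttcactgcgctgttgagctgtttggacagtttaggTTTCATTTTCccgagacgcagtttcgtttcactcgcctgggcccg
Oas1a, chr12:41330386-41330465, plus strand: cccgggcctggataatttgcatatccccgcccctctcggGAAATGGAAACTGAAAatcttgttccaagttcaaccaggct
Rsad2, chr6:48788223-48788302, minus strand: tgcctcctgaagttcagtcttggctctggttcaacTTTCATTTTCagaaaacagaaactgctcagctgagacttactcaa
The match ended within 50 bases of the start site in Gbp2, Ifit3 and Oas1a, and lay farther upstream in Irf7 and Rsad2. Matches describe letters in these windows and no binding was measured. The same motif was in 23 of 44 promoters of other interferon-stimulated genes and in 12 of 21 promoters of interferon gamma and antigen presentation targets.

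Levels are given as CPM, counts per M after TMM scaling over the 18 libraries, and changes as log2 fold changes with their SE from edgeR's quasi-likelihood test, in which a gene counts as changed at a Benjamini-Hochberg adjusted p under 0.05. Libraries held 10.8 to 21.99 M estimated counts in p16-null DMD, 11.5 to 16.6 M in DMD, 9.61 to 15.8 M in WT of 9 months, 10.3 to 12.4 M in WT of 18 months and 12.3 to 13.8 M in WT of 3 months. Dmd averaged 42.4 ± 8.32 CPM in p16-null DMD, 36.9 ± 6.65 in DMD and 140 ± 26.9 in WT of 9 months (SD, n = 6, 3 and 3). Cdkn2a averaged 12.3 ± 1.69 CPM in p16-null DMD and 14.2 ± 4.55 in DMD, against 0.106 ± 0.0952 in WT of 9 months (SD, n = 6, 3 and 3), but a count per gene pools p16 with the other product of that locus, so it does not check the p16-null label. At 9 months 26.4% of 14801 genes were higher and 21.8% lower in DMD than in WT. That split depends on the scaling: 54.8% of the calls were higher with TMM, 86.1% with library totals and 88.5% in TPM, and the median gene stood at 0.11, 0.76 and 0.64 (log2) in these 3 scalings. Between WT of 18 and 3 months 47.9% of the calls were higher with TMM, 79.9% with library totals and 87.6% in TPM, with the median gene at 0.00, 0.24 and 0.29 (log2). No member reversed direction between these scalings in DMD or p16-null DMD against WT of 9 months, while several did between WT of 18 and 3 months, as given there.

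DMD muscle had more of these transcripts than WT muscle of the same age. Of the 10 genes 7 were higher in DMD (Dhx58, Ifit3, Mx1, Gbp2, Irf7, Ifit2 and Oas1a), none was lower, and Rsad2, Isg15 and Mx2 did not pass. The share of all tested genes called higher in this comparison was 26.4%. The median log2 fold change of the 10 was 1.62, against 0.11 over all tested genes. In 6 of the 10 every DMD library lay above every WT library, which 30.7% of all tested genes did. The size of the difference ran from 1.02 in Mx2 to 3.03 in Dhx58 (log2).

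**Figure D1:**
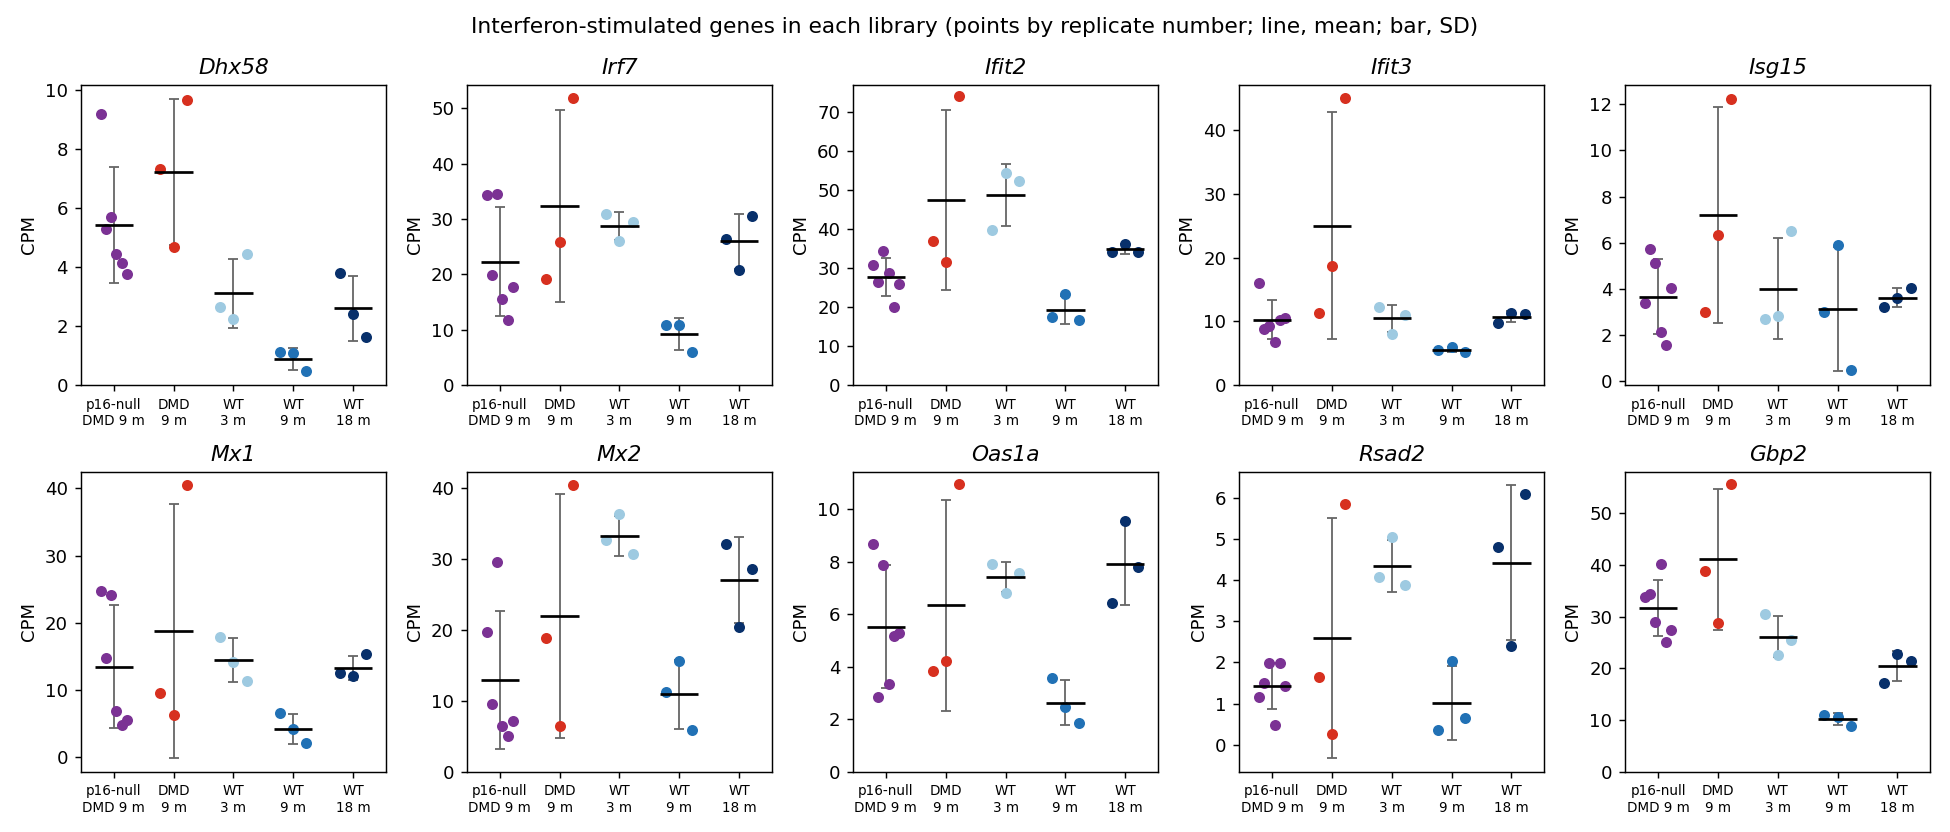
Level of each of the 10 genes in every library (y axis, CPM after TMM scaling, linear and different in each panel), in p16-null DMD and DMD of 9 months and in WT of 3, 9 and 18 months; each point is a library, the horizontal line the mean and the bar the SD. One DMD library stands above the other DMD libraries in every panel, and the WT libraries of 9 months lie at or near the bottom of most panels.

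The sensor Dhx58 (ENSRNOG00000018247) had the largest log2 fold change of the 10 in this comparison. It had 7.32, 4.69 and 9.68 CPM in DMD libraries 1 to 3, against 1.13, 1.08 and 0.459 CPM in WT libraries of 9 months. The lowest DMD library thus stood well above the highest WT library of that age, and the WT levels rest on 26 counts over 3 libraries. The log2 fold change was 3.03 ± 0.46 (adjusted p = 8.4e-05). In p16-null DMD it ran from 3.77 through a median of 4.87 to 9.18 CPM, also above all WT libraries of 9 months.

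The regulator Irf7 (ENSRNOG00000017414) had 19.1, 25.8 and 52.0 CPM in DMD, against 10.8, 10.9 and 5.97 CPM in WT of 9 months. The groups did not overlap, and DMD library 3 stood at more than the sum of the other two. The log2 fold change was 1.81 ± 0.44 (adjusted p = 0.0033). In p16-null DMD Irf7 ran from 11.7 through 18.8 to 34.6 CPM, with libraries 1 and 3 at 34.4 and 34.6 CPM.

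Both tetratricopeptide genes were higher in DMD. Ifit2 (ENSRNOG00000036604) had 36.8, 31.5 and 74.0 CPM in DMD, against 17.5, 23.2 and 16.6 CPM in WT of 9 months, a log2 fold change of 1.32 ± 0.28 (adjusted p = 0.0014). Ifit3 (ENSRNOG00000022839) had 11.3, 18.7 and 45.1 CPM in DMD, against 5.47, 5.94 and 5.14 CPM in WT of 9 months, a log2 fold change of 2.18 ± 0.42 (adjusted p = 0.00059). The groups did not overlap for either gene, and the 3 WT libraries lay close together while the DMD libraries were spread widely. In p16-null DMD Ifit2 ran from 19.9 through 27.5 to 34.4 CPM and overlapped WT, and Ifit3 ran from 6.80 through 9.69 to 16 CPM and did not.

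Gbp2 (ENSRNOG00000031743), the member most tied to interferon gamma, had 38.8, 28.7 and 55.6 CPM in DMD, against 11.0, 10.7 and 8.82 CPM in WT of 9 months. Its log2 fold change of 2.02 ± 0.24 had the smallest adjusted p of the 10 (1.3e-05). In p16-null DMD it ran from 25.2 through 31.4 to 40.1 CPM. Every mutant library therefore exceeded every WT library of 9 months.

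The Mx genes were less clear. Mx1 (ENSRNOG00000001959) had 9.52, 6.29 and 40.5 CPM in DMD, against 6.55, 4.19 and 2.11 CPM in WT of 9 months, a log2 fold change of 2.12 ± 0.76 (adjusted p = 0.031). The groups overlapped, and without DMD library 3 the log2 fold change was 0.89 (adjusted p = 0.321). Mx1 also missed the threshold without WT library 2 or 3 of 9 months (adjusted p = 0.0776 and 0.114). Mx2 (ENSRNOG00000001963) had 18.8, 6.51 and 40.4 CPM in DMD, against 11.3, 15.5 and 5.88 CPM in WT of 9 months, and did not pass (1.02 ± 0.68, adjusted p = 0.230), though it did with library totals (1.71, adjusted p = 0.0456). The 2 genes share reads: their estimated counts were not whole in 13 of 18 libraries, and their sum was whole in all 18. Summed, they had 12.8, 28.4 and 80.9 CPM in the DMD libraries in rising order, against 7.99, 17.8 and 19.7 CPM in those of WT of 9 months, and the sum did not pass (log2 fold change 1.43, adjusted p = 0.0976).

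Oas1a (ENSRNOG00000001369) stood close to the threshold. It had 3.84, 4.20 and 11.0 CPM in DMD, against 3.57, 2.46 and 1.86 CPM in WT of 9 months, a log2 fold change of 1.27 ± 0.50 (adjusted p = 0.046). The lowest DMD library lay only just above the highest WT library. Without DMD library 3 the log2 fold change was 0.63 (adjusted p = 0.320), and it also missed the threshold without WT library 2 or 3 of 9 months (adjusted p = 0.106 and 0.147) and without p16-null DMD library 5 or 6 (adjusted p = 0.0559 and 0.0526). The call was lost as well with RLE scaling (adjusted p = 0.0531) and when only the DMD and WT groups were fitted (adjusted p = 0.0505). Its estimated counts were not whole in any of the 18 libraries and no single other entry completed them to whole numbers, so its level is uncertain.

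Isg15 and Rsad2 did not pass the test, and the Isg15 call depended on the scaling. Isg15 (ENSRNOG00000069527) had 3.00, 6.35 and 12.2 CPM in DMD, against 3.01, 5.88 and 0.479 CPM in WT of 9 months (1.23 ± 0.68, adjusted p = 0.152). It passed without WT library 2 (log2 fold change 2.03, adjusted p = 0.0470), with library totals (1.9, adjusted p = 0.0301) and in limma on log2(TPM + 1) and log2(TPM + 0.1) (adjusted p = 0.0167 and 0.0172). Its reads were shared with the entry Agrn, which codes for agrin: the counts of both sum to whole numbers in all 18 libraries, and the sum, in which Agrn is included, passed (0.50, adjusted p = 0.0296). Rsad2 (ENSRNOG00000007539) had 1.63, 0.267 and 5.86 CPM in DMD, against 0.348, 2.03 and 0.643 CPM in WT of 9 months (1.42 ± 0.89, adjusted p = 0.205). The Rsad2 values rest on 5, 23 and 92 counts in the DMD libraries in rising order and on 4, 7 and 15 in those of WT of 9 months. Without DMD library 3 its log2 fold change was -0.026.

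Levels can be compared between genes in the deposited TPM, which are per transcript length. In DMD Irf7 averaged 33.3 ± 20.2 TPM, Gbp2 32 ± 13.0, Isg15 28.7 ± 21.4, Ifit2 27.8 ± 15.4 and Ifit3 25.5 ± 19.9 (SD, n = 3), spreads that overlap. In WT of 9 months Isg15 averaged 6.95 ± 5.80 TPM, Ifit2 6.37 ± 0.858, Mx2 5.55 ± 2.19, Irf7 5.42 ± 1.43 and Gbp2 4.55 ± 0.346 (SD, n = 3). Rsad2 and Dhx58 were the lowest in both groups: Rsad2 averaged 2.17 ± 2.5 TPM in DMD and 0.457 ± 0.384 in WT, and Dhx58 averaged 6.23 ± 2.60 TPM in DMD and 0.430 ± 0.166 in WT (SD, n = 3 each).

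**Figure D2:**
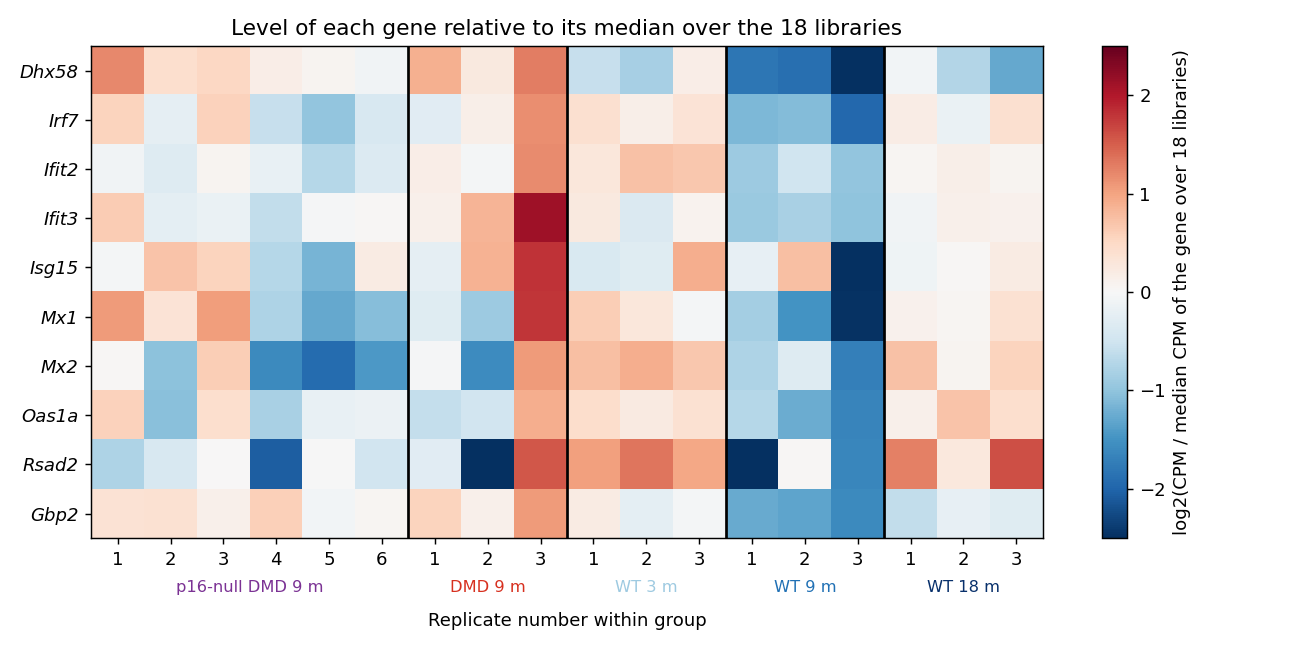
Heat map of the 10 genes (rows) in the 18 libraries (columns, by group), coloured by the log2 ratio of the CPM to that gene's median over all libraries (red above, blue below); values beyond the ends of the colour scale take the end colours. DMD library 3 is high in all rows, and WT libraries of 9 months are low in most.

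A single library stood apart. DMD library 3 had the highest level of the 3 DMD libraries for 10 of the 10 genes, which 30% of all genes in the fit of 18 libraries had, and the highest of all 18 libraries for 9 of the 10, against 6.47% of all genes. The exception was Rsad2, highest in WT library 3 of 18 months. The median level over the 10 genes, relative to each gene's median over all libraries, was 0.919, 1.02 and 2.35 in DMD libraries 1 to 3, against 0.531, 0.521 and 0.312 in WT libraries of 9 months. In p16-null DMD it ran from 0.633 to 1.39, highest in libraries 1 and 3. Macrophage markers were also highest in that DMD library, at a sum of 3031 CPM over 8 genes against 1884 and 1984 CPM in DMD libraries 1 and 2. The sums of T and NK cell and of dendritic cell markers were highest there too. Neutrophil and muscle fibre markers were highest in DMD library 2, and B and plasma cell, fibroblast and endothelial markers in DMD library 1. The part of these cells in the result was not tested. In p16-null DMD the macrophage sum was 3729 CPM in library 1 and 1295 CPM in library 3.

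None of the 10 genes passed the test between p16-null DMD and DMD muscle at 9 months. With edgeR's quasi-likelihood test 0 of 10 passed, as did 0 of 10 with DESeq2 and 0 of 10 with limma on log2 TPM, and 0.00676% of all tested genes (1 gene) were called. All 10 differences were negative, from -0.19 to -1.28, with a median of -0.64 (log2) and adjusted p-values of 0.425 to 0.987. At an unadjusted p under 0.05 there were 2, Ifit3 (-1.28 ± 0.32) and Ifit2 (-0.77 ± 0.23), and 5.16% of all genes. The libraries of both groups overlapped for all 10 genes; over all genes 1.1% had every p16-null DMD library above every DMD library and 0.919% below.

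The size and direction of that difference rested on which DMD libraries entered. Without DMD library 3 the direction turned in 4 genes, to 0.77 in Mx1, 0.027 in Mx2, 0.45 in Oas1a and 0.59 in Rsad2 (log2), none of them past the threshold. Without DMD library 1 Ifit3 passed (-1.62, adjusted p = 0.0249) and 85 of all genes did, against 1 with all libraries. The spread within p16-null DMD was as wide as the gap between the groups for most genes: Mx1 ran from 4.87 through 10.9 to 24.7 CPM in p16-null DMD, and Mx2 from 5.10 through 8.33 to 29.5 CPM. Isg15 ran from 1.56 through 3.71 to 5.71 CPM, Oas1a from 2.84 through 5.22 to 8.65 CPM and Rsad2 from 0.479 through 1.47 to 2.0 CPM in p16-null DMD.

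Against WT of 9 months, p16-null DMD muscle had 3 of the 10 genes higher and none lower, where 27.5% of all tested genes were higher. These were Dhx58 (2.61 ± 0.42, adjusted p = 1.4e-04), Gbp2 (1.64 ± 0.22, adjusted p = 2.3e-05) and Irf7 (1.29 ± 0.40, adjusted p = 0.0137). In 4 genes, these 3 and Ifit3, every p16-null DMD library lay above every WT library, which held for 23.8% of all genes. Ifit3 (0.90), Mx1 (1.66), Oas1a (1.08) and Ifit2 (0.55) had adjusted p-values of 0.057 to 0.080, and Rsad2, Mx2 and Isg15 of 0.58 to 0.73. The count was 7 when only these groups were fitted or when DMD library 3 was left out, 6 without p16-null DMD library 4 and 5 without p16-null DMD library 5. Without WT library 3 of 9 months Irf7 missed the threshold (1.04, adjusted p = 0.0793). This comparison shares its WT libraries with that of DMD against WT, so the 2 are not independent.

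**Figure D3:**
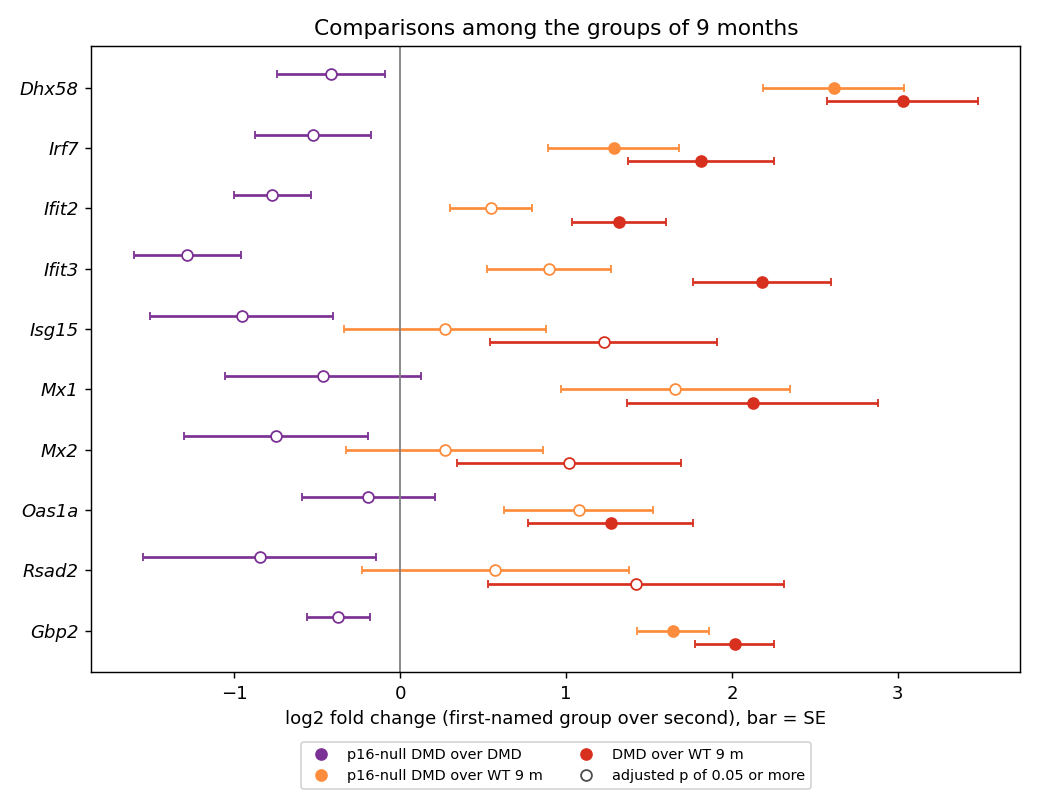
Log2 fold change of each of the 10 genes in the 3 comparisons at 9 months (x axis; bars give the SE), with filled points for an adjusted p under 0.05 and open points for others. All points of DMD and p16-null DMD over WT lie right of 0, and all of p16-null DMD over DMD lie left of 0 and are open.

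Among the WT groups all of the 10 genes except Isg15 had their lowest median CPM at 9 months. The median CPM of WT of 9 months was the lowest of all 5 groups for 8 of the 10 genes, against 24.2% of all genes; the exceptions were Mx2, lowest in p16-null DMD, and Isg15, lowest in WT of 3 months. Irf7 had 31.0, 26 and 29.4 CPM at 3 months, 10.8, 10.9 and 5.97 CPM at 9 months and 26.4, 20.8 and 30.6 CPM at 18 months. Gbp2 had 30.4, 22.5 and 25.4 CPM at 3 months, 11.0, 10.7 and 8.82 CPM at 9 months and 17.2, 22.8 and 21.4 CPM at 18 months. In both genes the libraries of 9 months lay below all others of WT. Mx2 had 32.7, 36.3 and 30.7 CPM at 3 months and 32.1, 20.4 and 28.5 CPM at 18 months, above all its libraries of 9 months. Rsad2 had 4.08, 5.06 and 3.88 CPM at 3 months and 4.80, 2.39 and 6.09 CPM at 18 months.

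The ages of 3 and 18 months form one set in the study's design and the age of 9 months belongs to another, so age and any difference between the sets cannot be told apart; comparisons across them were added after seeing the data, in a fit of all 18 libraries. In WT of 9 months against WT of 3 months all 10 differences were negative, with a median of -1.56 against 0.00 over all genes (log2). Gbp2 (-1.36, adjusted p = 0.0061) and Ifit2 (-1.36, adjusted p = 0.0140) passed, 2 of 10, where 0.32% of all genes were lower. For 9 of 10 genes all libraries of 9 months lay below all of 3 months, against 8.98% of all genes, and Isg15 was the exception. Ifit2 lost its call without WT library 2 of 3 months or WT library 1 or 3 of 9 months (adjusted p = 0.0586, 0.0534 and 0.0938).

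In WT of 18 months against WT of 9 months 4 of 10 were higher and none lower, where 3.84% of all genes were higher. They were Gbp2 (1.01, adjusted p = 0.0092), Irf7 (1.5, adjusted p = 0.0225), Oas1a (1.59, adjusted p = 0.031) and Ifit2 (0.87, adjusted p = 0.040). For 9 of 10 genes all libraries of 18 months lay above all of 9 months, against 15.8% of all genes. The count was 0 without WT library 3 of 9 months, which was the lowest of that group for most of the 10 genes, 1 without WT library 1 of 18 months, and 2 without library 2 or library 3 of 18 months. Gbp2 missed the threshold only without WT library 3 of 9 months (adjusted p = 0.0523). Irf7 missed it without that library or library 1 or 3 of 18 months (adjusted p = 0.063 to 0.11), and Ifit2 and Oas1a each without 5 of the 6 libraries (adjusted p = 0.0551 to 0.142). The libraries of WT of 9 months are shared by this comparison and the one against 3 months.

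Between the ends of the age range, WT of 18 months against WT of 3 months, the 10 genes were closer. Only Ifit2 passed, lower at 18 months with 34.0, 36.2 and 34.2 CPM, against 39.7, 54.3 and 52.4 CPM at 3 months (-0.48 ± 0.14, adjusted p = 0.029), where 10.1% of all tested genes were lower. That call was lost when any single library of 18 months or library 2 or 3 of 3 months was left out (adjusted p = 0.0667 to 0.115), and with library totals (-0.24, adjusted p = 0.233) or TPM. The other 9 genes had log2 fold changes from -0.35 to 0.10 and adjusted p-values of 0.18 to 0.95. Ifit3 had 9.77, 11.3 and 11.2 CPM at 18 months, against 12.2, 8.07 and 11.1 CPM at 3 months, and Dhx58 had 3.80, 2.39 and 1.63 CPM at 18 months, against 2.66, 2.24 and 4.44 CPM at 3 months. Mx1 had 12.6, 12.1 and 15.3 CPM at 18 months, against 17.9, 14.2 and 11.4 CPM at 3 months. Isg15 had 3.23, 3.58 and 4.04 CPM at 18 months, against 2.69, 2.82 and 6.53 CPM at 3 months, and Oas1a had 6.41, 9.55 and 7.79 CPM at 18 months, against 7.90, 6.80 and 7.57 CPM at 3 months. In these 5 genes the groups overlapped, and the signs of Dhx58, Mx1, Irf7 and Isg15 turned with library totals, as did those of Gbp2 and Mx2 in TPM.

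Against WT of the other ages, DMD muscle of 9 months differed in fewer of the 10 genes. Against WT of 3 months 3 of 10 were higher, Ifit3 (1.26, adjusted p = 0.0072), Gbp2 (0.65, adjusted p = 0.0168) and Dhx58 (1.21, adjusted p = 0.0205), where 26.5% of all genes were higher. The log2 fold changes of Ifit2, Mx2, Oas1a and Rsad2 were negative, and those of Ifit2 and Oas1a turned positive with library totals. Against WT of 18 months the same 3 genes were higher, Gbp2 by 1.0 (adjusted p = 0.0011), Dhx58 by 1.47 (adjusted p = 0.0091) and Ifit3 by 1.22 (adjusted p = 0.0113), where 20.4% of all genes were higher. Irf7, which passed against WT of 9 months, had log2 fold changes of 0.17 against WT of 3 months and 0.31 against WT of 18 months.

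These calls rested on few libraries. Without DMD library 3 none of the 3 genes passed against WT of 3 months (adjusted p = 0.105 to 0.171), and Rsad2 was lower in DMD (-2.22, adjusted p = 0.0244). Without WT library 2 of 3 months 1 of the 10 passed, Ifit3. Dhx58 also missed the threshold without WT library 1 of 3 months (adjusted p = 0.0684), and Gbp2 without library 3 (adjusted p = 0.0561). Against WT of 18 months, without DMD library 3, Ifit3 and Dhx58 missed the threshold (adjusted p = 0.234 and 0.0541), and Rsad2 was again lower (-2.25, adjusted p = 0.0299). Dhx58 also missed it without WT library 3 of 18 months (adjusted p = 0.0537). The 3 comparisons of DMD share their DMD libraries.

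**Figure D4:**
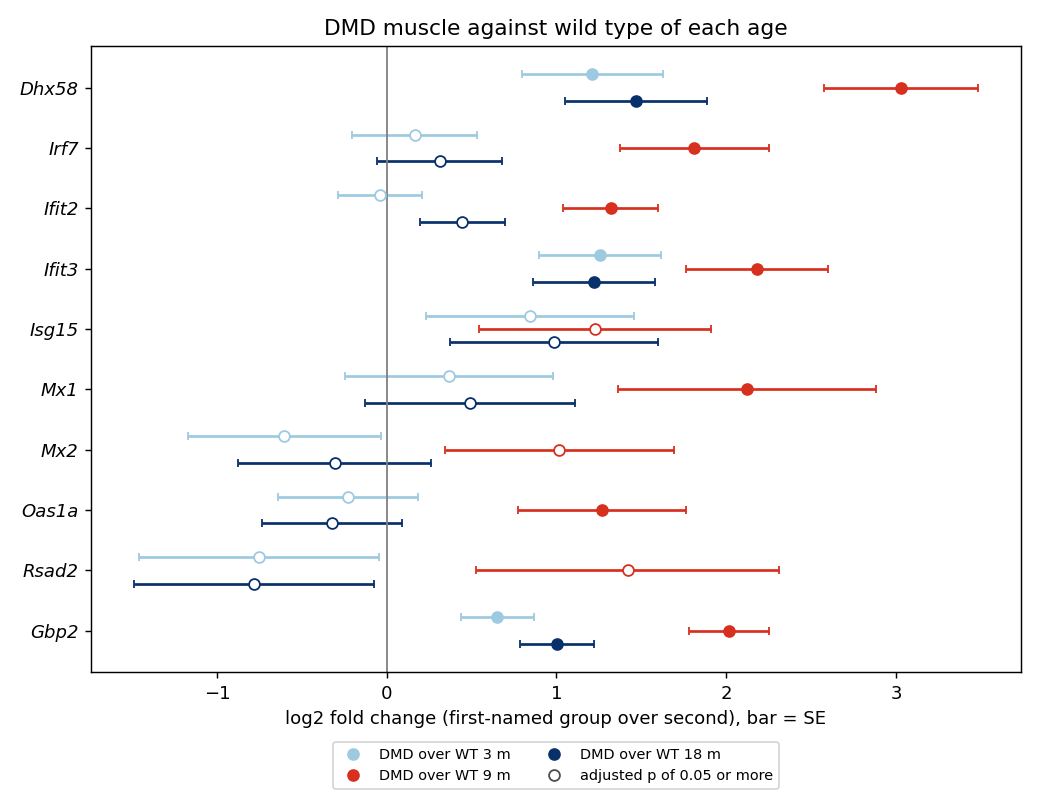
Log2 fold change of each of the 10 genes in DMD muscle of 9 months over WT muscle of 3, 9 and 18 months (x axis; bars give the SE), with filled points for an adjusted p under 0.05 and open points for others. Filled points against all 3 ages occur for Dhx58, Ifit3 and Gbp2, and for Irf7, Ifit2, Mx1 and Oas1a only the points against WT of 9 months are filled.

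Within groups the 10 genes varied together. After the group means were removed from log2 CPM, the 45 pairs of members had a median Pearson r of 0.55 over 18 libraries (0.28 to 0.89), highest for Mx1 with Irf7. Without DMD library 3 the median was 0.36 (-0.21 to 0.85). Irf7, Mx1 and Mx2 followed the mean of the other 9 genes most closely, at r = 0.89, 0.88 and 0.87, and at 0.87, 0.80 and 0.86 without that library. Gbp2 and Rsad2 followed it least closely, at 0.52 and 0.56, and at 0.18 and 0.21 without that library. Isg15, Dhx58 and Ifit3 were at 0.61, 0.64 and 0.66, and at 0.52, 0.61 and 0.29 without that library. These values describe libraries that share a scaling and a few extremes, and Mx1 and Mx2 also share reads.

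The genes most like the mean of the 10 in this sense were ranked among 11585 genes. RT1-S3, a non-classical MHC class I gene, led with r = 0.93 over 18 libraries, followed by Pdia5, a protein disulfide isomerase, at 0.83 and Ddx58, the RNA sensor RIG-I, at 0.82. RT1-T24-4 and Ly6e, which codes for a GPI-anchored surface protein, were at 0.81, Oas1k (entry ENSRNOG00000033220) and the Isg15-removing protease Usp18 at 0.80, Lgals9 (galectin-9) and RT1-T24-1 at 0.79 and Smagp at 0.78. RT1-S3 had 65.7, 45.0 and 109 CPM in DMD libraries 1 to 3, the same order of libraries as Mx1.

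None of the 8 interferon genes looked up by symbol had enough counts to be tested. Other interferon genes and entries without a symbol were not searched. Ifnb1, Ifna1, Ifnk, Ifnl1 and Ifnl3 had 0 counts in all 18 libraries. Ifna4 had 6 counts, all in 1 DMD library. Ifng had 5 counts in p16-null DMD and 1 in DMD, and Ifne had 32 in p16-null DMD, 8 in DMD, none in WT of 9 months, 7 in WT of 18 months and none in WT of 3 months. At this depth the transcripts of these 8 genes were thus at or near the limit of detection in whole muscle.

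The genes for interferon receptors and signal transducers were higher in DMD than in WT of 9 months. Of 6 receptor genes 5 were higher and none lower, where 26.4% of all tested genes were higher, with a median log2 fold change of 1.11 against 0.11 over all genes. Ifnar2 averaged 51.2 ± 7.5 CPM in DMD and 19.1 ± 1.57 CPM in WT (1.43 ± 0.17), and Ifnar1 averaged 69.3 ± 13.1 CPM in DMD and 41.0 ± 2.71 CPM in WT (0.76 ± 0.21; SD, n = 3 each). Ifnlr1, which with Il10rb forms the receptor of lambda interferons, showed the widest gap, at 28.2 ± 16 CPM in DMD and 0.601 ± 0.887 CPM in WT (5.81 ± 0.86). The interferon gamma receptor genes Ifngr1 (0.80 ± 0.14) and Ifngr2 (0.75 ± 0.20) were also higher. Il10rb did not pass, and it averaged only 0.365 ± 0.633 CPM in DMD (SD, n = 3). Of 5 transducer genes 4 were higher, Jak2 (1.5 ± 0.23), Stat2 (1.23 ± 0.20), Tyk2 (0.88 ± 0.27) and Irf9 (0.83 ± 0.29), and Jak1 did not pass (0.31 ± 0.14, adjusted p = 0.095).

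Other interferon-stimulated genes moved in the same comparison. Of 46 tested 29 were higher in DMD than in WT of 9 months and 1 was lower, with a median log2 fold change of 1.31, where 26.4% of all tested genes were higher and 21.8% lower. Ifitm1, which codes for a membrane protein that restricts virus entry, averaged 53.3 ± 13.8 CPM in DMD and 3.08 ± 1.22 CPM in WT (4.07 ± 0.32; SD, n = 3 each). Slfn2 (2.0 ± 0.20), Sp110 (1.83 ± 0.21), Lgals3bp (2.05 ± 0.23) and Ifitm3 (1.53 ± 0.18) followed. The gene that was lower was Cmpk2, a mitochondrial nucleotide kinase gene, at 4.35 CPM in DMD and 9.06 CPM in WT on average (-1.06 ± 0.36, adjusted p = 0.0237); it was named after its value was seen. Of 22 interferon gamma and antigen presentation targets 17 were higher and none lower, with a median of 1.52, beside the same 26.4% of all genes. Among them were Irf8 (2.61 ± 0.34), Ciita, the master regulator of MHC class II genes (2.74 ± 0.51), Cd74, the class II invariant chain (2.03 ± 0.29), the peptide transporter gene Tap1 (1.57 ± 0.24) and Irf1 (1.61 ± 0.30).

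Sensors and adaptors went both ways. Of 14 tested 6 were higher and 2 lower in DMD than in WT of 9 months, with a median of 1.33, where 26.4% of all tested genes were higher and 21.8% lower. The kinase gene Ikbke (3.60 ± 0.37), the cytosolic DNA adaptor gene Sting1 (2.57 ± 0.41), the Toll-like receptor adaptor gene Myd88 (2.18 ± 0.31) and Trim56 (1.40 ± 0.21) were higher. Mavs, the mitochondrial adaptor on which RIG-I depends, averaged 17.7 ± 3.22 CPM in DMD and 55.6 ± 5.04 CPM in WT (-1.64 ± 0.21; SD, n = 3 each), and Tlr3, a sensor of double-stranded RNA, was also lower (-0.98 ± 0.32). Ifih1 (MDA5) did not pass (0.35 ± 0.24, adjusted p = 0.241).

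Between p16-null DMD and DMD no gene of these lists passed: 0 of 46 other interferon-stimulated genes, 0 of 22 interferon gamma targets, 0 of 6 receptor genes, 0 of 5 transducer genes and 0 of 14 sensors. Over all tested genes only 1 gene (0.00676%) was called in this comparison, so these counts are not particular to the lists. The transcription factor gene Irf1 averaged 28.5 ± 8.89 CPM in p16-null DMD and 49.6 ± 16.8 CPM in DMD (-0.80 ± 0.24, adjusted p = 0.633; SD, n = 6 and 3). Jak2 (-0.54 ± 0.19, adjusted p = 0.774), Slfn2 (-0.43 ± 0.16, adjusted p = 0.819) and Trim56 (-0.46 ± 0.17, adjusted p = 0.819) did not pass either. The receptor gene Il10rb differed in the other direction, at low levels, and did not pass (3.24, adjusted p = 0.842). Ifnar1 (0.0029) and Irf9 (-0.00017) hardly differed. The medians of these lists ran from -0.24 to -0.058 (log2). Against WT of 9 months, p16-null DMD had 27 of 46 other interferon-stimulated genes higher and 2 lower, 15 of 22 interferon gamma targets, 6 of 6 receptor genes and 4 of 5 transducer genes higher, and 7 of 14 sensors higher and 2 lower, where 27.5% of all tested genes were higher and 22.7% lower.

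With age in WT muscle the lists did not follow the 10 genes in every case. In WT of 9 months against 3 months 2 of 46 other interferon-stimulated genes were lower, Herc6 (-1.80 ± 0.37) and Uba7 (-2.20 ± 0.41), which code for a ligase (known from mouse) and the activating enzyme of Isg15 attachment and were named after their values were seen, and none was higher; 0.32% of all genes were lower. In WT of 18 months against 9 months 7 of 46 were higher, where 3.84% of all genes were, among them Ifi44l (1.84 ± 0.40) and Oasl2 (1.87 ± 0.40), also named after their values were seen. In WT of 18 months against 3 months, 3 of 45 were higher, Ifitm1 (1.40 ± 0.36), Lgals3bp (0.65 ± 0.18) and 1 of the entries named Oas1k (ENSRNOG00000062846, 1.16 ± 0.38), a share below the 9.32% of all tested genes that were higher. Of 22 interferon gamma targets 5 were higher and 1 lower at 18 months than at 3 months, where 9.32% of all genes were higher and 10.1% lower. The class I regulator gene Nlrc5 averaged 22 CPM at 18 months and 6.62 CPM at 3 months (1.74 ± 0.20), Cxcl11, a chemokine gene, was higher by 2.89 ± 0.65, and B2m, the light chain of MHC class I, by 1.02 ± 0.13. The gene that was lower was Igtp (-0.54 ± 0.15, adjusted p = 0.0196), named here after its value was seen. Of 11 sensors 2 were lower, beside the same 10.1% of all genes, Ifih1 (-0.58 ± 0.18) and Tlr3 (-0.53 ± 0.15).

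**Figure D5:**
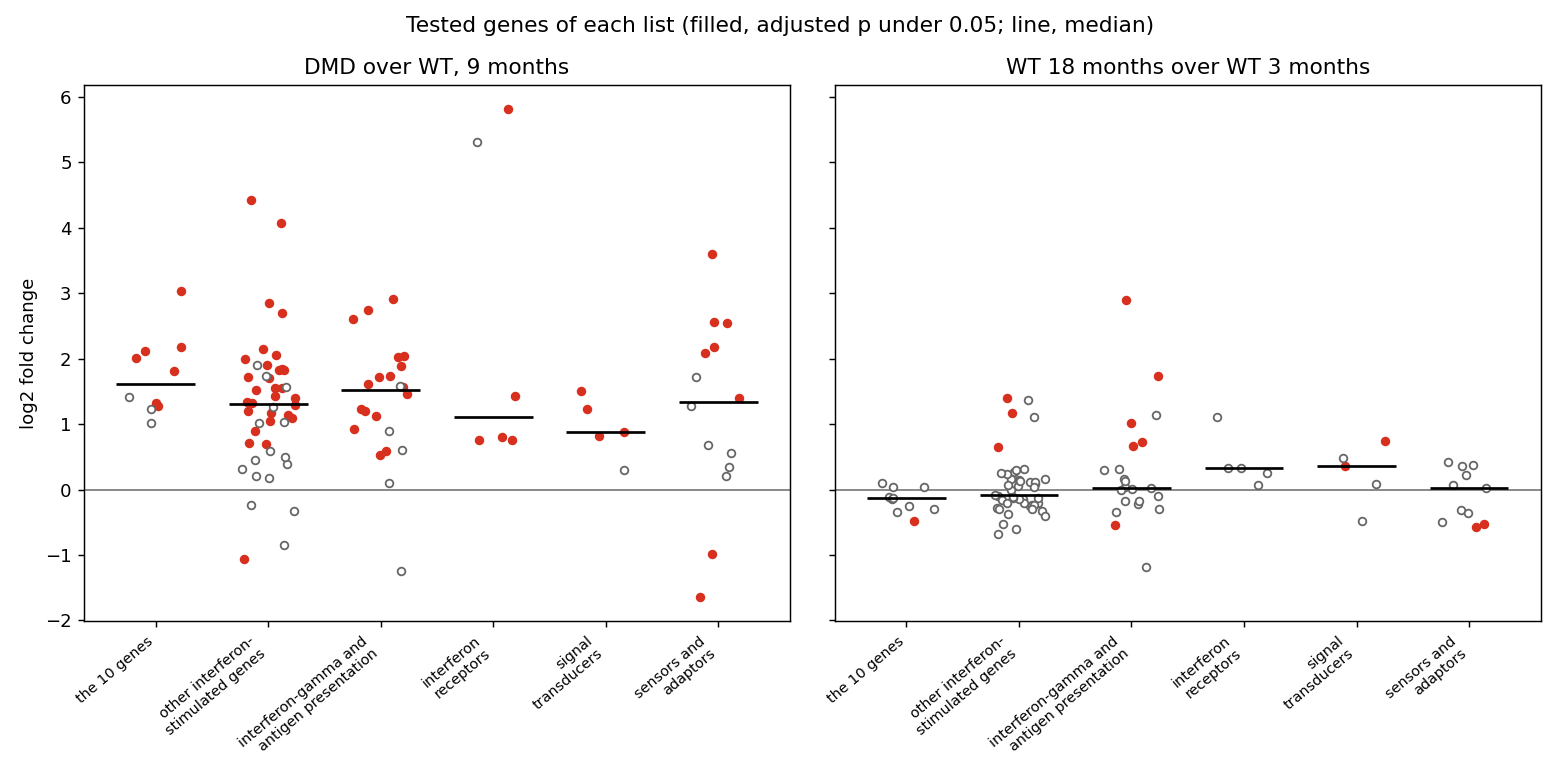
Log2 fold changes of every tested gene of the 10 members and of the related gene lists (x axis: list), for DMD over WT of 9 months and for WT of 18 months over WT of 3 months (y axis); filled points have an adjusted p under 0.05 and horizontal lines mark list medians. The medians of all lists shown lie above 0 in DMD over WT, from 0.88 to 1.62, and lie within 0.4 of 0 between WT of 18 and 3 months.

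Cell markers differed between the same groups, and in whole muscle more cells of a type and more RNA per cell cannot be told apart. All 8 macrophage markers were higher in DMD than in WT of 9 months, at sums of 1884 to 3031 CPM in DMD and 294 to 317 CPM in WT. They summed to 1270 to 3729 CPM in p16-null DMD, 490 to 715 CPM in WT of 18 months and 253 to 404 CPM in WT of 3 months. All 6 T and NK cell markers were higher in DMD, at sums of 14.0 to 28.7 CPM in DMD and 2.66 to 4.32 CPM in WT of 9 months. Dendritic cell markers summed to 34.2 to 47.7 CPM in DMD and 10 to 12 CPM in WT of 9 months, with 3 of 5 tested higher, Cd209a at 0 in all 5 groups and Siglech at 0 in WT of 9 months. Muscle fibre markers, 5 of 5 lower, summed to 33854 to 53022 CPM in DMD and 118891 to 134177 CPM in WT of 9 months. Fibroblast markers, 6 of 6 higher, summed to 2903 to 4757 CPM in DMD and 1359 to 1371 CPM in WT of 9 months. Of 6 neutrophil markers 5 were higher and none lower, and of 6 endothelial markers 2 were lower and none higher. The 1 tested B and plasma cell marker was higher. Beside these counts, 26.4% of all tested genes were higher and 21.8% lower. The part of these cells in the levels of the 10 genes was not tested.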

How the data were processed

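The values are estimated counts per gene from RSEM and TPM, both as deposited by the submitters, for 30560 entries in 18 libraries. The submitters' processing notes name RSEM 1.3.3, STAR 2.7.10b, FastQC and Trimmomatic, without roles, and the build mRatBN7.2. The annotation used and any strand setting were not given in the sources used here. TruSeq RNA libraries were sequenced, per the labels. Of the deposited estimated counts 4.50% were not whole, and they were rounded. TPM as deposited by the authors carry no depth.

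Genes were filtered with filterByExpr, scaled by TMM and tested with edgeR 4.0.16 quasi-likelihood tests (R 4.3.3). Libraries of 9 months entered 1 fit of 3 groups (14801 genes, biological coefficient of variation 0.260), the WT groups of 18 and 3 months had another (13487 genes, 0.176), and comparisons across both sets used 1 fit of all 18 libraries (14982 genes, 0.242). P-values were adjusted by Benjamini-Hochberg over all tested genes. Separate preparation is not stated, so p-values reflect only spread among libraries, in part perhaps technical.

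Alternatives were DESeq2 1.42.0, RLE scaling, library totals, limma 3.58.1 on log2(TPM + 1) and log2(TPM + 0.1), no filter beyond 1 count, a filter of 5 CPM in 3 libraries, other sets of libraries, the replicate number as a block, and each library left out. The members and the gene lists were chosen with earlier results of these data known. Named list genes are up to 5 with the smallest p in DMD against WT and up to 3 in WT of 18 against 3 months, plus the main receptor and transducer genes. The genes most like the members were ranked by Pearson r of residuals from group means of log2(CPM + 0.5), among genes with a mean log2 CPM of at least 1. Figures were drawn with matplotlib 3.10.9.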

Additional observations from a re-analysis of the deposited data

Results flagged for a closer look

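Of 10 groups of 6 libraries examined, the 10 genes in p16-null DMD, 1 held a library far from the others. Dhx58 stood at 9.18 CPM in p16-null DMD library 1, with the other libraries of that group at 3.77 to 5.71 CPM. Its gap to the nearest library was large for the range of the group. Chance alone marks about 1 in 20 such groups.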

How the results depend on the processing

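In DMD against WT of 9 months 5 to 9 of the 10 genes were called under every alternative, against 7. The count of 9 came with library totals, where 8930 of 14801 genes were called, 7688 of them higher. With TMM 7142 were called, 3914 of them higher, so that count does not show a stronger result for the 10 genes. Leaving out single libraries moved the log2 fold change of Rsad2 from -0.026 to 2.37 there. In p16-null DMD against DMD the calls over all genes were 15 with DESeq2 and 0 with the replicate block, against 1, and ran from 1 to 85 when single libraries were left out; calls among the 10 genes ran from 0 to 1. Single libraries moved Mx1 from -0.88 to 0.77, Mx2 from -1.20 to 0.027, Oas1a from -0.44 to 0.45 and Rsad2 from -1.39 to 0.59 in that comparison. In p16-null DMD against WT of 9 months 3 of 10 were called, but 7 with library totals, with TPM at either pseudocount or with only these groups fitted, 6 in the fit of 18 libraries, and 5 with DESeq2 or with no filter. Calls over all genes there were 7432, but 9320 with library totals and 9801 and 10006 on log2(TPM + 1) and log2(TPM + 0.1); 86.6% of the calls were higher with library totals and 89.97% on log2(TPM + 1), against 54.8%. Single libraries moved that count from 2 to 7, Mx2 from -0.18 to 0.60 and Isg15 from -0.26 to 1.07. 

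In WT of 18 months against 3 months the 1 call became 0 in the fit of 18 libraries, with library totals and with TPM at either pseudocount, and 0 to 1 without single libraries. Calls over all genes were 2623, 1742 in the fit of 18 libraries, and 1696 to 2415 without single libraries. With library totals the sign turned for Dhx58 (0.0059), Mx1 (0.10), Irf7 (0.090) and Isg15 (0.12). On log2(TPM + 0.1) it turned for Gbp2 (0.013), Dhx58 (0.084), Mx1 (0.10), Mx2 (0.042), Irf7 (0.20) and Isg15 (0.29), and on log2(TPM + 1) for the same genes (0.011, 0.068, 0.084, 0.040, 0.19 and 0.25). Single libraries moved Rsad2 from -0.25 to 0.34, Oas1a from -0.050 to 0.24, Dhx58 from -0.62 to 0.084, Mx1 from -0.27 to 0.069, Ifit3 from -0.11 to 0.18 and Isg15 from -0.35 to 0.40.

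In WT of 9 months against 3 months 1 gene was called on TPM and 1 to 2 without single libraries, and Isg15 moved from -1.20 to 0.13. In WT of 18 months against 9 months 7 were called with library totals and 0 to 3 without single libraries, and Isg15 moved from -0.29 to 1.03. In DMD against WT of 3 months 5 were called on TPM and 1 to 3 without single libraries. There Ifit2 and Oas1a turned with library totals (0.54 and 0.34) and on TPM (0.66 and 0.39). Single libraries moved Ifit2 from -0.51 to 0.19, Oas1a from -0.88 to 0.026, Mx1 from -0.88 to 0.79 and Irf7 from -0.36 to 0.43. In DMD against WT of 18 months Mx2 (0.041) and Oas1a (0.0087) turned with library totals and Oas1a (0.10) on TPM. Single libraries moved Mx2 from -1.10 to 0.13, Ifit2 from -0.028 to 0.67, Mx1 from -0.76 to 0.91 and Irf7 from -0.21 to 0.58. The causes were not tested. For these comparisons across both sets, shares of all genes called under the alternatives are not given here, so the changed counts cannot be set against all genes.

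Same-numbered libraries did not deviate together (12 pairs, r from -0.21 to 0.098). The labels do not say whether they share anything besides the number, and these values cannot decide it. With the replicate block 6 of the 10 genes were called in DMD against WT, Oas1a being lost (adjusted p = 0.0773), 0 in p16-null DMD against DMD, 4 in p16-null DMD against WT and 1 in WT of 18 against 3 months; Mx1 (0.42) and Oas1a (0.00087) turned in p16-null DMD against DMD and Rsad2 (-0.019) in WT of 18 against 3 months. Low counts limit Dhx58 and Rsad2 in WT of 9 months, at 26 counts each over 3 libraries.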
